A study of Homo sapiens with 12 samples.

Results

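Genes for the making of ribosomes were followed in 4 human synovial sarcoma cell lines given the pan-PI3K inhibitor ZSTK474. The set held 45 genes, taken by name as proteins of RNA polymerase I, of small nucleolar ribonucleoprotein particles (snoRNPs) or of the assembly of the small and large ribosomal subunits, together with other proteins of the nucleolus. A gene entered when a probe set of the array carried its symbol and no other, and its brightest such probe set was used. That gave 40 of the 45 genes, all 40 of which passed the filter on dim probe sets, among 12132 genes tested in all. NOP56, DKC1, BOP1 and PPAN were named only on probe sets shared with other genes, and GNL3 was not named by the annotation used here. The lines were Aska-SS and Yamato-SS, which carry the SS18-SSX1 fusion according to the study's list of lines, and SYO-1 and Fuji, which carry SS18-SSX2. Every line was grown in RPMI-1640 with 5% fetal bovine serum and kanamycin, and was exposed for 24 h to 0, 0.3 or 3 µM ZSTK474, where 0 µM is labelled as control or non-treated and the treatment protocol names a vehicle. Each line and dose was measured once, so that the 12 arrays form 3 dose groups of 4 lines. The p-values measure the spread of the dose changes between the 4 lines, with the differences in level between lines removed. That spread is pooled over the 3 doses and drawn toward that of other genes.

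A ribosome begins in the nucleolus, where RNA polymerase I copies the ribosomal DNA into a long precursor RNA. snoRNPs guide the methylation and pseudouridylation of that RNA, a large processome cuts out the RNA of the small subunit, and separate sets of factors fold and trim the precursors of the 40S and 60S particles before they leave the nucleus. PI3K acts through Akt and mTORC1, a route known to promote rRNA synthesis and ribosome production in growing cells, and the transcription factor MYC, which binds the E-box CACGTG, is known to drive many genes of this set.

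Promoter sequence was looked at first, since many of these genes moved together. RefSeq windows of the assembly GRCh38.p14, which run from 250 bases before a gene's start to 50 after it, were given for 39 of the 45 genes. The E-box CACGTG, which reads the same on both strands, lay in the windows of 19 of the 39 genes (48.7%), against 8.77% of all 27305 genes with a window and 13.1% of the 9896 tested genes with one. Of all 35116 windows, 7.26% held it. The ETS motif CCGGAAGT, searched on both strands, lay in the windows of 9 of the 39 genes (23.1%), against 10.0% of the tested genes. The palindrome CTCGCGAG lay in 3 of the 39 (7.69%), POLR1B, NOP14 and NPM1, against 1.23% of all genes and 2.44% of the tested genes. The forkhead motif GTAAACA, searched on both strands, lay in 1, NOP14, against 4.19% of all genes. The 20 E-box matches in these genes began between base -170 and base 36 from the start, and 12 of them lay after it. The stretch around the E-box is printed below for the 4 genes holding it that had the smallest adjusted p at 3 µM, with the E-box in capitals. LYAR and DDX21 are shown over the 100 bases before their start, and PNO1 and MRTO4, whose match lies in transcribed sequence, over 30 bases only.
LYAR: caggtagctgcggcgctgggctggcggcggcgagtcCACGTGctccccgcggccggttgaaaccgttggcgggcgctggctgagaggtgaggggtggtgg
PNO1: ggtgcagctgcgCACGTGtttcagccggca
MRTO4: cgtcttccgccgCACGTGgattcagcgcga
DDX21: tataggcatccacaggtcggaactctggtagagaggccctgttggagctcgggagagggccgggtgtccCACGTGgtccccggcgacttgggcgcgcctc
The stretch of LYAR is chr4:4290022-4290121 on the minus strand, and its E-box begins at base -64 from the start. That of PNO1 is chr2:68157885-68157914 on the plus strand with the E-box from base 10 after the start. MRTO4 lies at chr1:19251807-19251836 on the plus strand with the E-box from base 15 after the start, and DDX21 at chr10:68956547-68956646 on the plus strand with the E-box from base -31. Such a match describes the letters of a window and is not a measured binding site.

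The arrays were Affymetrix U133 Plus 2.0, with deposited medians of 60.1 to 85.3 and a trimmed mean of 500.1 on each array. They give relative levels, so a loss of RNA shared by all transcripts of a cell would not be seen. All 6 synovial sarcoma markers checked (TLE1, BCL2, ZIC2, FGFR2, EPHA4 and PDGFRA) passed the filter, which is set on the mean over the arrays. In single arrays their log2 signals went from 5.14, below the filter level, to 15.00. Of 6 leukocyte markers only 4 had a probe set of their own, and 0 of these 4 passed. Of 5 endothelial markers only PECAM1 did, with log2 signals of 6.62 to 7.43 against a filter level of 6.03.

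At 3 µM most of the ribosome biogenesis genes fell. The change of 30 of the 40 genes passed an adjusted p of 0.05 in the downward direction (75%), whereas 21.1% of all 12132 genes tested did. NOB1, the endonuclease that makes the last cut of 18S rRNA, was the only one of the 40 to rise, against 22.6% of all genes tested. The other 9 genes did not pass. The median change of the 40 genes was -0.46 on the log2 scale, whereas that of all genes tested was 0.01. A lower signal than untreated was measured in each of the 4 lines for 29 of the 40 genes, against 23.9% of all genes, and in 13 of the 40 every array at 3 µM lay below every untreated array, against 6.03% of all genes. The changes ranged from -1.34 in PNO1 to 1.31 in NOB1, and below RRP12, at -1.01, lay NIP7, UTP15, POLR1A, RRP9, LYAR and PNO1.

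**Figure D1:**
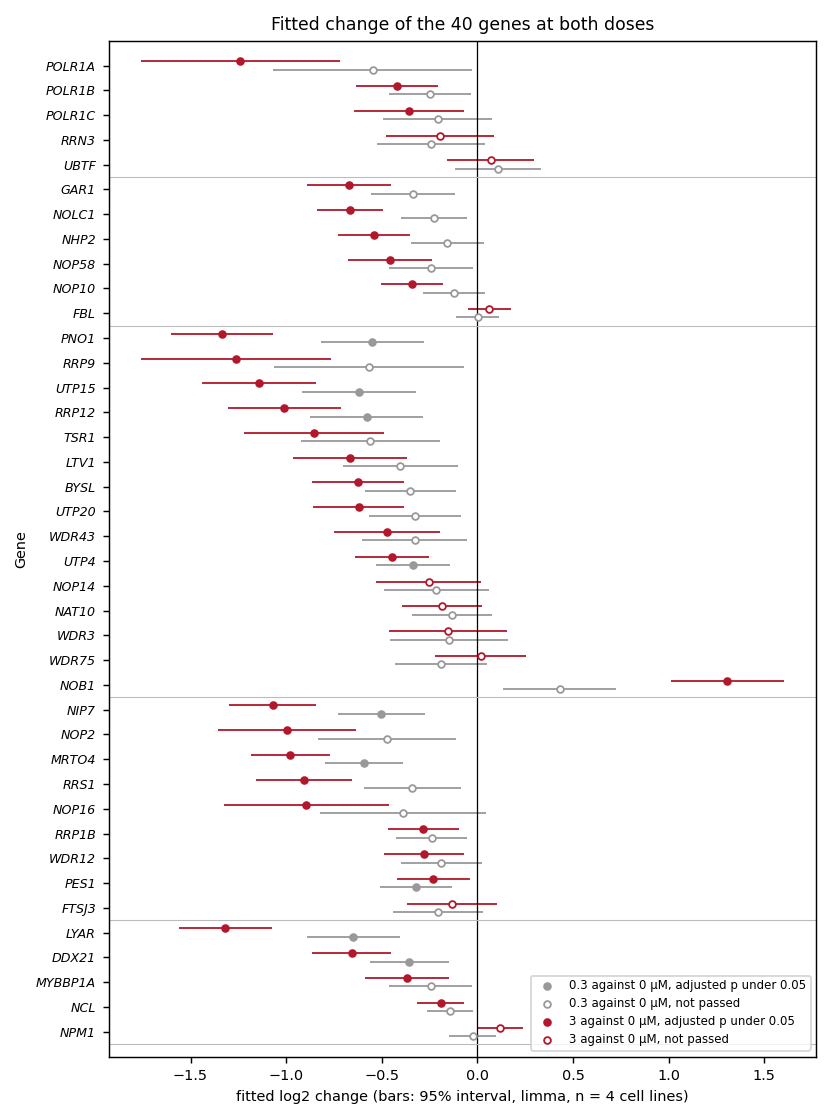
Fitted log2 change of signal (horizontal axis) for each of the 40 genes (vertical axis, grouped by role) at 0.3 µM (grey) and 3 µM (red) against 0 µM. Bars are 95% intervals from limma over 4 cell lines, and filled points passed an adjusted p of 0.05. Most red points lie left of 0, NOB1 lies at 1.31, and the grey points lie mostly between 0 and the red ones.

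Among RNA polymerase I and its factors, 3 of 5 genes fell at 3 µM and the median change was -0.36. The catalytic core is built by POLR1A, the largest subunit, with POLR1B. With the lines always given as Aska-SS, then SYO-1, then Yamato-SS and then Fuji, the log2 signal of POLR1A was 9.02, 9.28, 9.08 and 9.49 untreated, 8.52, 9.56, 8.42 and 8.19 at 0.3 µM, and 7.25, 8.55, 7.67 and 8.45 at 3 µM. The 4 arrays at 3 µM all lay below the 4 untreated ones, and SYO-1 at 0.3 µM was the one treated array above its untreated partner. POLR1A fell by 1.24 ± 0.24 (SE of the limma fit, n = 4 lines, adjusted p = 0.00141), which is 2.36-fold. POLR1B gave 11.18, 10.78, 11.21 and 10.74 untreated, 10.98, 10.67, 10.84 and 10.43 at 0.3 µM, and 10.66, 10.71, 10.64 and 10.23 at 3 µM. Its groups at 0 and 3 µM did not overlap, although the difference within SYO-1 was -0.08. POLR1B fell by 0.42 ± 0.10 (adjusted p = 0.00417) on its brightest probe set. Its other probe sets gave -0.24, -0.13 and -0.07, and the call was lost with the mean of them all (-0.21, adjusted p = 0.137). POLR1C, a subunit shared with RNA polymerase III, fell by 0.36 ± 0.13 (adjusted p = 0.0434). That call was lost in 3 of the 4 fits that left out a line. Without Aska-SS, for example, the change was -0.18 (adjusted p = 0.258). It was lost also in 4 alternatives that kept the block and the 4 lines, such as no quantile normalization (adjusted p = 0.0532). RRN3, which recruits the polymerase to the rDNA promoter, changed by -0.19 (95% interval -0.48 to 0.09) and UBTF, the factor that binds along active rDNA, by 0.07 (-0.16 to 0.29), and neither passed.

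Of the snoRNP proteins, 5 of 6 fell and the median change was -0.50. NOLC1, a nucleolar chaperone of snoRNPs, had log2 signals of 13.02, 13.01, 13.14 and 12.80 untreated, 12.81, 12.79, 12.88 and 12.57 at 0.3 µM, and 12.47, 12.45, 12.53 and 11.84 at 3 µM. Each line went down at each step of dose and the groups at 0 and 3 µM did not overlap. The fall of NOLC1 was 0.67 ± 0.08, or 1.59-fold (adjusted p = 6.04e-05). GAR1, a core protein of the H/ACA particles that pseudouridylate rRNA, went from 11.49, 11.71, 11.79 and 11.44 untreated to 10.97, 11.53, 11.65 and 10.93 at 0.3 µM and 10.47, 11.27, 11.28 and 10.72 at 3 µM. It followed the dose in each line too, with groups that did not overlap, and fell by 0.67 ± 0.10 (adjusted p = 0.00027). The other H/ACA core proteins measured fell by less, NHP2 by 0.54 ± 0.09 and NOP10 by 0.34 ± 0.07. On the side of the box C/D particles, which methylate rRNA, the scaffold NOP58 fell by 0.46 ± 0.10 whereas the methyltransferase FBL changed by 0.06 (95% interval -0.05 to 0.17) and did not pass.

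In the assembly of the small subunit, 10 of 15 genes fell, 1 rose and 4 did not pass, with a median of -0.62. PNO1 and NOB1 meet on the late precursor of the 40S particle, where PNO1 binds the end of 18S rRNA that NOB1 cuts. The log2 signal of PNO1 was 11.57, 11.61, 11.63 and 11.49 untreated, within a span narrower than any of its dose steps, then 10.84, 11.31, 11.06 and 10.89 at 0.3 µM and 10.29, 10.75, 10.02 and 9.89 at 3 µM. PNO1 fell by 1.34 ± 0.12, or 2.53-fold (adjusted p = 1.6e-05). NOB1 moved the other way, from 10.88, 11.16, 11.41 and 10.95 untreated to 11.35, 11.49, 11.47 and 11.81 at 0.3 µM and 12.10, 12.82, 12.53 and 12.18 at 3 µM. Every array of NOB1 at 3 µM lay above every untreated one, and its rise was 1.31 ± 0.14, or 2.47-fold (adjusted p = 2.85e-05). NOB1 was read on 1 probe set only, so alternatives in the choice of probe set could not vary its reading. NOB1 was higher by 1.66 in SYO-1, by 1.23 in both Aska-SS and Fuji, and by 1.11 in Yamato-SS.

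Other factors that ride on the precursor of the 40S particle fell as well: BYSL by 0.62 ± 0.11, LTV1 by 0.67 ± 0.14, TSR1 by 0.85 ± 0.17 and RRP12 by 1.01 ± 0.14. TSR1 fell by 0.46 with the mean of its probe sets and changed by 0.084 (adjusted p = 0.713) on the one with a plain identifier. Of the processome, the U3 snoRNP protein RRP9 fell by 1.26 ± 0.23 (adjusted p = 0.000899), with line values from -1.85 in Aska-SS to -0.22 in SYO-1. UTP15, of the early subcomplex that links transcription with processing, fell by 1.14 ± 0.14 (adjusted p = 6.41e-05). Its untreated signals were close to each other, 9.68 to 9.80, and those at 3 µM were 8.41 to 8.97. Of the partners of UTP15 in that subcomplex, UTP4 fell by 0.45 ± 0.09 and WDR43 by 0.47 ± 0.13, whereas WDR75 changed by 0.02 (95% interval -0.22 to 0.25). UTP20 fell by 0.62 ± 0.11. WDR3 (-0.15), NOP14 (-0.25) and the rRNA acetyltransferase NAT10 (-0.18) did not pass. WDR3 and WDR75 were lower than untreated in 2 lines and higher in the other 2.

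Of the large subunit factors, 8 of 9 fell and the median change was -0.89. By line the median was -0.98 in Aska-SS, -0.57 in Fuji, -0.49 in Yamato-SS and -0.30 in SYO-1. MRTO4, a relative of the stalk protein P0 that sits in its place on precursors of the 60S particle, had log2 signals of 10.13, 11.75, 11.81 and 11.06 untreated, 9.67, 11.25, 11.29 and 10.17 at 0.3 µM, and 9.15, 10.87, 10.79 and 10.03 at 3 µM. The lines differed in level more than the doses did, so the groups overlapped, yet the change at 3 µM was alike in the 4 lines, -1.03 to -0.88. MRTO4 fell by 0.98 ± 0.09, or 1.97-fold (adjusted p = 1.95e-05). NIP7, an assembly factor of the 60S particle, read 11.28, 11.66, 12.18 and 11.02 untreated, 10.73, 11.26, 11.62 and 10.52 at 0.3 µM, and 10.11, 10.89, 10.77 and 10.09 at 3 µM. Its groups at 0 and 3 µM did not overlap, and it fell by 1.07 ± 0.10 (adjusted p = 2.01e-05). NOP2, a methyltransferase of 28S rRNA, fell by 0.997 ± 0.17, RRS1, which brings in the 5S particle, by 0.91 ± 0.12, and NOP16 by 0.89 ± 0.20. The falls of PES1 (0.23 ± 0.09) and WDR12 (0.28 ± 0.10), which form the PeBoW complex with BOP1, and of RRP1B (0.28 ± 0.08) had adjusted p of 0.0486, 0.0343 and 0.0176. These 3 calls were lost without Aska-SS or without Yamato-SS, those of PES1 and RRP1B also without Fuji, and that of WDR12 also with the mean of its probe sets (-0.16, adjusted p = 0.274). FTSJ3, another rRNA methyltransferase, changed by -0.13 and did not pass.

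Other nucleolar proteins fell in 4 of 5 cases, with a median of -0.37. LYAR, a zinc finger protein that takes part in rRNA synthesis and processing, had the smallest adjusted p of the 40 genes. Its log2 signal was 11.00, 10.99, 11.86 and 9.97 untreated, 10.01, 10.73, 11.23 and 9.25 at 0.3 µM, and 9.52, 9.86, 10.48 and 8.68 at 3 µM. Fuji was lowest and Yamato-SS highest at each dose, so the groups overlapped while each line stepped down with each dose. LYAR fell by 1.32 ± 0.11, or 2.49-fold (adjusted p = 1.05e-05). DDX21, an RNA helicase that works on rDNA transcription and on pre-rRNA, gave 13.59, 13.89, 13.66 and 13.75 untreated, 13.25, 13.67, 13.29 and 13.25 at 0.3 µM, and 12.94, 13.59, 13.05 and 12.68 at 3 µM. Its groups just missed each other, since SYO-1 at 3 µM had about the level of untreated Aska-SS, and DDX21 fell by 0.66 ± 0.10 (adjusted p = 0.00022). MYBBP1A fell by 0.37 ± 0.10 and nucleolin (NCL) by 0.19 ± 0.06. Nucleophosmin (NPM1), a storage and chaperone protein of the nucleolus, changed by 0.12 (95% interval -0.0032 to 0.24) and did not pass. On its other probe sets NPM1 was higher by 0.30 and 0.41, and with the mean of its probe sets in place of the brightest it rose by 0.28 (adjusted p = 0.00125).

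**Figure D2:**
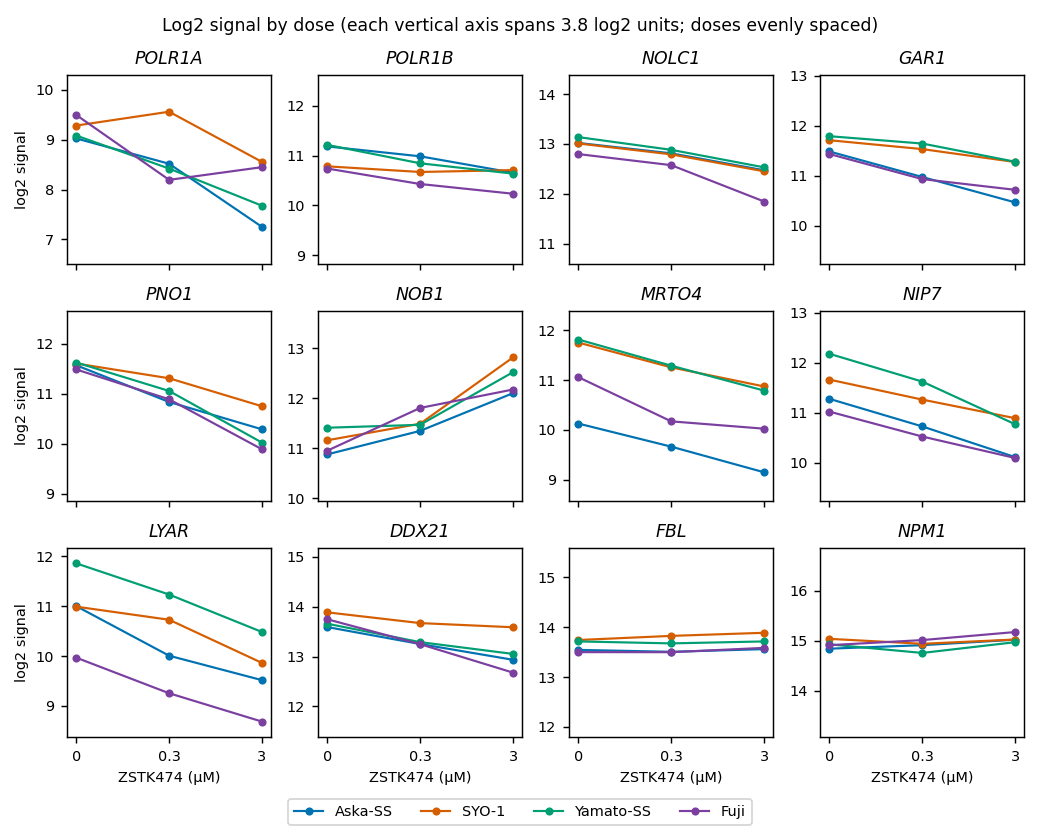
Log2 signal (vertical axis, each panel spanning the same range) by ZSTK474 dose in µM (horizontal axis, evenly spaced) for 12 genes, with 1 point per array and 1 line per cell line. NOB1 climbs in the 4 lines, FBL and NPM1 stay nearly level, and LYAR, PNO1, NIP7 and MRTO4 step down in each line at each dose.

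At 0.3 µM the 9 genes that fell were UTP4, UTP15, RRP12, PNO1, PES1, NIP7, MRTO4, LYAR and DDX21, against 3.35% of all genes tested. None of the 40 rose, against 4.57% of all genes. The largest of these falls were those of LYAR (0.65 ± 0.11, adjusted p = 0.0116), UTP15 (0.62 ± 0.14, 0.0233) and MRTO4 (0.59 ± 0.09, 0.0104). The median change of the 40 genes was -0.28, with 0.00 for all genes tested, and 28 of the 40 were lower than untreated in 4 of 4 lines, against 19.3% of all genes. NOB1 was higher in each line, by 0.06 to 0.86, and its change of 0.43 did not pass (adjusted p = 0.0726). The count rested on the number of lines: 0 of the 40 genes passed when Aska-SS was left out, 1 when Fuji, 3 when Yamato-SS and 4 when SYO-1 was, where 14 to 24 genes kept an unadjusted p under 0.05.

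From 0.3 to 3 µM, 9 of the 40 genes fell further, against 8.09% of all genes, and NOB1 rose by 0.88 ± 0.14 (adjusted p = 0.00324), against 7.25% of all genes. The genes that fell in this step were NHP2, GAR1, NOLC1, UTP15, PNO1, RRS1, NIP7, MRTO4 and LYAR. Of these, UTP15, PNO1, NIP7, MRTO4 and LYAR had also passed at 0.3 µM. Without Aska-SS the count of this step was 5. PNO1 made the widest further step down of the 40, 0.79 ± 0.12 (adjusted p = 0.00324), after 0.55 ± 0.12 at 0.3 µM. PES1, in contrast, had a fitted change of -0.32 at 0.3 µM and -0.23 at 3 µM. A descending order of 0, 0.3 and 3 µM in each of the 4 lines was measured in 13 of the 40 genes, against 9.27% of all genes. These comparisons share arrays, the untreated ones or those at 0.3 µM, so their values are given side by side only.

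Between lines the falls were smaller in SYO-1. At 3 µM the median change of the 40 genes was -0.28 in SYO-1, compared with -0.52 in Fuji, -0.54 in Yamato-SS and -0.66 in Aska-SS, where the medians of all genes tested lay between -0.01 and 0.03. A change of -0.5 or lower was measured in 10 of the 40 genes in SYO-1, against 15.6% of all genes, in 22 in Fuji, against 23.7%, in 21 in Yamato-SS, against 17.9%, and in 26 in Aska-SS, against 20.4%. SYO-1 had the highest change of the 4 lines in 29 of the 40 genes, as it had in 23.8% of all genes. The contrast was widest in RRP9, at -1.85 in Aska-SS and -0.22 in SYO-1. LYAR (-1.13), MRTO4 (-0.88), RRP12 (-0.87) and PNO1 (-0.86) were the genes lowest against untreated within SYO-1, whereas WDR43 (-0.04), WDR12 (-0.04), PES1 (-0.02) and RRP1B (0.01), which fell over the 4 lines, lay near their untreated level there. From 0.3 to 3 µM the median step was 0.00 in SYO-1, -0.17 in Fuji, -0.21 in Yamato-SS and -0.32 in Aska-SS.

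At 0.3 µM the line medians were -0.18 in SYO-1, -0.29 in Fuji, -0.34 in Yamato-SS and -0.33 in Aska-SS. A change of -0.5 or lower at this dose was found in 2 genes in SYO-1, against 5.67% of all genes, in 9 in Fuji, against 14.6%, in 9 in Yamato-SS, against 7.16%, and in 15 in Aska-SS, against 9.97%. With 1 array per line and dose, no difference between lines was tested. RNA integrity can be followed by the log2 ratio of the 3′ to the 5′ probe sets of long transcripts. For ACTB this ratio stood higher at 3 µM by 0.12 in SYO-1, 0.59 in Fuji, 0.20 in Yamato-SS and 0.21 in Aska-SS, while that of GAPDH differed by -0.13 to 0.15, and their part in the results was not tested.

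**Figure D3:**
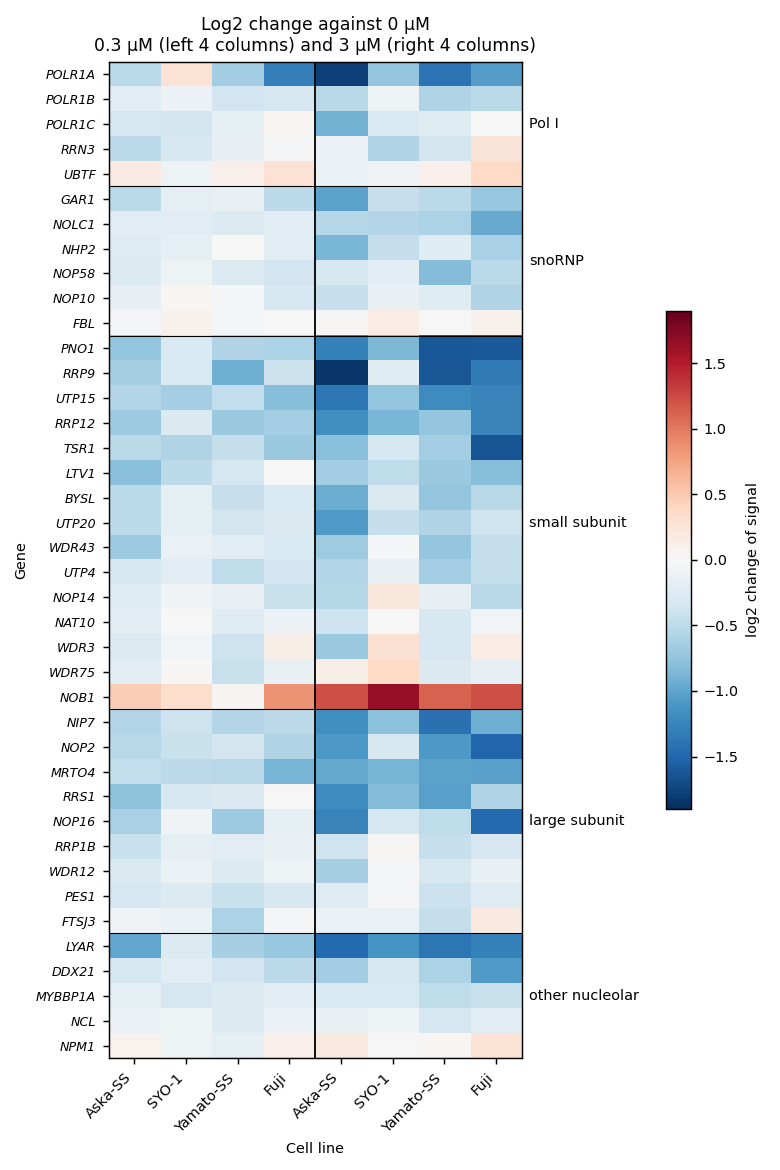
Log2 change of signal against the untreated array of the same line, by colour (blue lower, red higher), for the 40 genes in rows, ordered by role, and the 4 lines in columns at 0.3 µM (left) and 3 µM (right). The SYO-1 column at 3 µM is paler than its neighbours, with a median of -0.28, and the NOB1 row alone is red in every column.

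**Figure D4:**
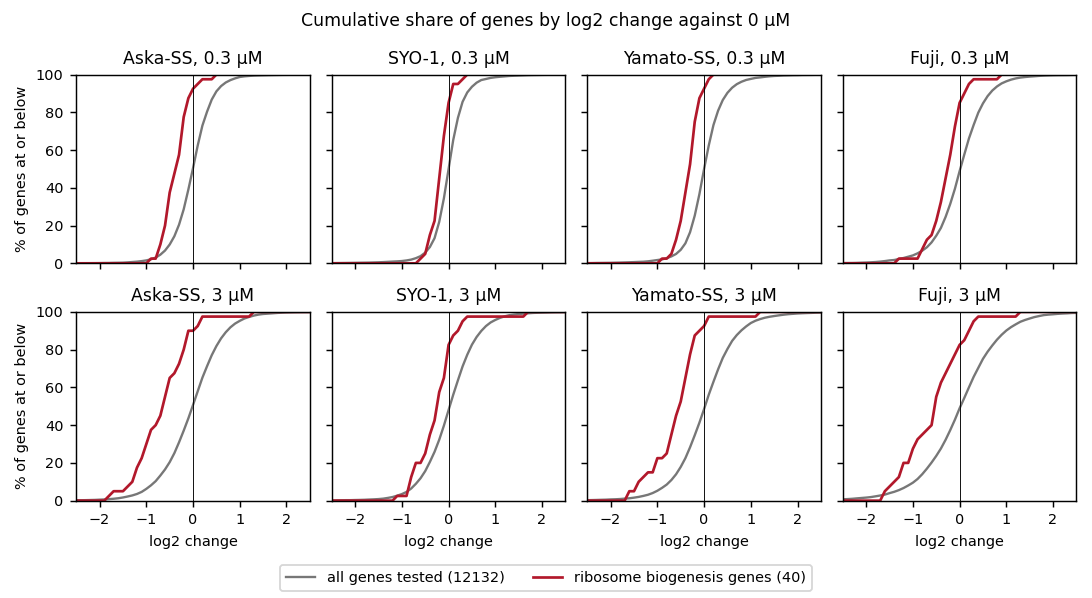
Percent of genes (vertical axis) whose log2 change against 0 µM lies at or below the value on the horizontal axis, per line and dose, for the 40 genes (red) and all 12132 genes tested (grey). The red curve lies left of the grey one through its middle in each of the 8 panels, and the gap at 3 µM is narrowest in SYO-1.

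Before treatment the lines differed in the level of these genes. Yamato-SS had the highest untreated signal of the 4 lines in 23 of the 40 genes and SYO-1 in 11, while Aska-SS and Fuji each had the lowest in 18. The same counts were not taken over all genes. The median deviation of the 40 genes from their mean over the untreated lines was 0.24 in Yamato-SS, 0.08 in SYO-1, -0.14 in Aska-SS and -0.16 in Fuji, where the medians of all genes lay between -0.02 and 0.04. The range over the untreated lines was narrowest in UTP15, 0.12, and widest in RRS1, 2.05. Its median was 0.70 in the 40 genes and 0.97 in all genes. All genes were not matched to the 40 on signal, and with 1 array per line the range also holds the error of single arrays. The range of the change at 3 µM over the lines had a median of 0.63 in the 40 genes and 0.68 in all genes, and went from 0.14 in FBL to 1.62 in RRP9.

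Some genes could be read on several probe sets. Of the 40 genes, 20 had more than 1 above the filter, and in TSR1 and UBTF these differed in sign at 3 µM. The probe sets of TSR1 gave -0.97, -0.85, -0.11 and 0.08. LYAR (-1.32 and -1.27), NIP7 (-1.07 and -1.03), DDX21 (-0.67 and -0.66), UTP4 (-0.45 and -0.42) and UTP15 (-1.14 and -1.04) gave close values. In PNO1 they went from -1.44 to -0.62, in NOP16 from -1.07 to -0.34 and in MYBBP1A from -0.91 to -0.37. The span was -1.18 to -0.67 in NOLC1 and -1.01 to -0.64 in RRP12. The dimmest probe set of NOP16 above the filter gave 0.80 in Yamato-SS and 0.05 in SYO-1, but -0.82 in Aska-SS and -1.37 in Fuji. In POLR1A the values went from -1.24 to -0.45, and with their mean POLR1A fell by 0.80.

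Other genes of the pathway were read from 4 further lists. Of 143 listed, 137 were tested, of which 73 fell, 12 rose and 52 did not pass at 3 µM, with a median of -0.32, where 21.1% of all genes fell and 22.6% rose. At 0.3 µM 16 fell, against 3.35% of all genes, and 0 rose, against 4.57%. From 0.3 to 3 µM 24 fell, against 8.09% of all genes, and 8 rose, against 7.25%. Of 45 further genes of the processome and of 40S maturation, 25 fell and 2 rose. The smallest adjusted p were those of RRP36, which fell by 1.36 ± 0.10 (adjusted p = 6.47e-06), and NOC4L, which fell by 1.14 ± 0.15 (0.000109), while the kinase RIOK3 rose by 0.70 ± 0.14 and UTP25 by 0.40 ± 0.12. Of 33 genes for rRNA trimming, snoRNP assembly and RNase MRP, 20 fell and 2 rose. EXOSC3, a subunit of the RNA exosome, fell by 0.99 ± 0.10, and RUVBL1, an ATPase that assembles snoRNPs, by 1.09 ± 0.12, while ZNHIT3, another snoRNP assembly factor, rose by 0.66 ± 0.07 and the exonuclease XRN2 by 0.36 ± 0.10.

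Of 44 further genes for 60S assembly and export, 23 fell and 6 rose. The GTPase GTPBP4 fell by 0.92 ± 0.10 and the SUMO protease SENP3 by 0.91 ± 0.11, whereas RSL24D1 rose by 0.58 ± 0.07, the export adaptor NMD3 by 0.58 ± 0.09 and NSA2 by 0.46 ± 0.07. The 15 further subunits and factors of RNA polymerase I gave the weakest shift, a median of -0.08, with 5 fallen and 2 risen. POLR2L, which is shared between the nuclear RNA polymerases, fell by 0.65 ± 0.06 (adjusted p = 2.18e-05). POLR1D, the partner of POLR1C, rose by 0.95 ± 0.09 (adjusted p = 1.6e-05), higher in each of the 4 lines, and POLR1E rose by 0.44 ± 0.10.

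**Figure D5:**
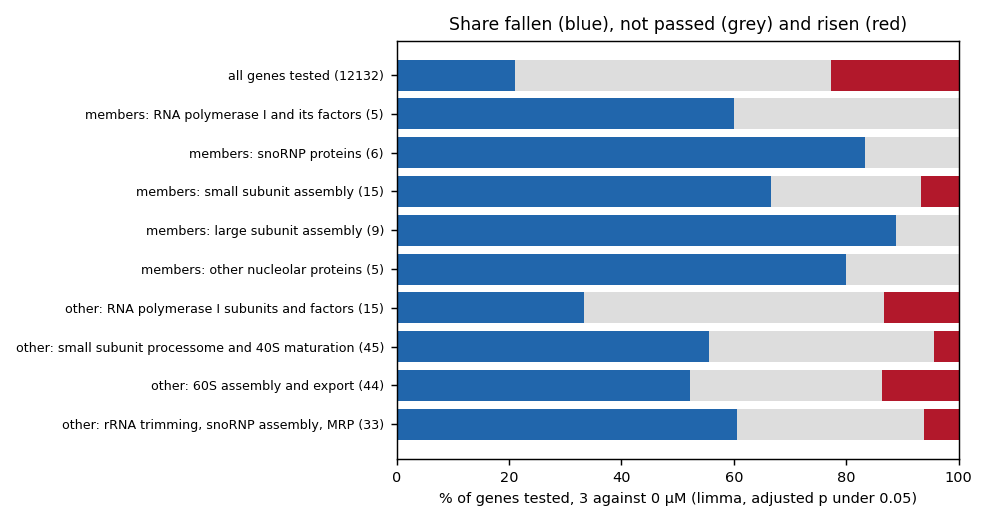
Percent of genes tested (horizontal axis) that fell (blue), did not pass (grey) or rose (red) at 3 against 0 µM, for all 12132 genes, the 5 roles of the 40 genes and 4 lists of other pathway genes (vertical axis, number tested in parentheses). The blue share is 21.1% in all genes and larger in each of the other bars.

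Returning to the promoters, 18 of the 40 genes tested held the E-box in their window and 17 had a window without it. Of those with it 15 fell, among them LYAR, PNO1, MRTO4, DDX21, GAR1, RRP9 and NOP2, and the median change was -0.62. Of those without it 10 fell and the median was -0.28. Among these 10 were POLR1A (-1.24), UTP15 (-1.14), NIP7 (-1.07), NOP16 (-0.89) and TSR1 (-0.85), and NOB1, which rose, lacked the E-box too. RRP12, RRS1, NOLC1, NOP58 and RRP1B, which all fell, had no window and stand in neither group. Over all tested genes with a window, the median was 0.01 with the E-box and 0.01 without. FBL, NOP14 and NAT10 held it and did not pass. For the ETS motif, 7 of 8 genes with it and 18 of 27 without it fell, with medians of -0.43 and -0.47. Genes were not chosen by these motifs, and the differences between the groups were not tested.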

How the data were processed

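Total RNA of 4 synovial sarcoma cell lines at 3 doses of ZSTK474 was hybridized to Affymetrix U133 Plus 2.0 arrays, 12 in all. The authors deposited signal intensities on a linear scale, made with MAS5, for which no version is given in the sources used here. The study's methods name quantile normalization, and the deposited columns differ in distribution, so it was applied in this work. A floor was set at the 20th percentile of the table (a signal of 12.1), log2 was taken, and the 62 control probe sets were left out. Of 54675 probe sets, 41097 had 1 gene symbol, 1801 several and 11777 none in the platform annotation, and 0 symbols were updated through RefSeq. Probe sets with a mean log2 signal above the median (6.03) were kept and the brightest stood for its gene. No per-sample column was left out.

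Changes were fitted with limma 3.58.1 in R 4.3.3 over all 12132 genes and 12 arrays, with dose as the factor, cell line as a block, a mean-variance trend in eBayes and Benjamini-Hochberg adjustment over all genes (threshold 0.05, two-sided). The block comes from the labels, which measure each line at each dose. Deviations from the dose means correlated at 0.828 to 0.931 between arrays of the same line and at -0.461 to -0.0892 between lines. Deviations of the 4 lines sum to 0 at each dose, which by construction pushes the values between lines below 0. Sources do not say whether the arrays of a line came from separate cultures. Precision is limited by how few arrays there are.

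The 40 genes and the lists of other pathway genes were chosen with earlier results of these data known, and no list was tested as a set. All 40 are accounted for by role. Values in every array are given for the 2 genes of each role with the smallest adjusted p at 3 µM and for any gene called against the majority. Of each list of other genes, the 2 with the smallest adjusted p and up to 3 called the other way are named. Genes outside this rule that are named for a wide or narrow range were picked after their values were seen. Alternatives changed the normalization, the floor, the pseudocount, the filter, the probe set, the block, the variance model and the lines included. The probe sets for ribosomal RNA were not analysed here.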

Additional observations from a re-analysis of the deposited data

Results flagged for a closer look

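The changes of the 40 genes were looked at for a line far from the other 3, in 80 sets of 4 line values (40 genes at 2 doses). By Dixon's criterion 6 sets stood out, and chance flags about 1 in 20. At 3 µM against untreated, POLR1B was at -0.076 in SYO-1, where the other lines lay between -0.58 and -0.50, and NOLC1 was at -0.95 in Fuji, where the others lay between -0.61 and -0.55. At 0.3 µM, RRP12 was at -0.28 in SYO-1 (others -0.71 to -0.64) and MRTO4 at -0.89 in Fuji (others -0.53 to -0.46). At the same dose FTSJ3 was at -0.60 in Yamato-SS (others -0.12 to -0.04), and NCL was at -0.26 there (others -0.11 to -0.09).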

How the results depend on the processing

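Of 31 genes of the set called at 3 µM, 23 passed in the same direction in every alternative that kept the block and the 4 lines, and 22 did so also without each line in turn. The calls lost in some such alternative were those of POLR1B, POLR1C, TSR1, PES1, WDR12, RRP1B, NCL and MYBBP1A, and that of WDR43 was lost without Aska-SS (adjusted p = 0.0506). At 3 µM the count of fallen genes was 24 to 30 in every alternative but one: it was 3 (NOLC1, PNO1 and UTP15, with NOB1 risen) with no replicate block, where 15 had an unadjusted p under 0.05. With no replicate block, which leaves the differences in level between the lines in the error, the count was 0 at 0.3 µM and 0 from 0.3 to 3 µM (unadjusted 3 and 4), and in limma 0 of all genes passed either of these comparisons. At 0.3 µM the count of 9 became 1 with no filter on dim probe sets, 2 with no mean-variance trend, 16 with only the arrays of the 2 doses, 19 with array weights and 0 to 4 when each line was left out in turn, with 0 without Aska-SS. From 0.3 to 3 µM the count of 9 became 15 with array weights and 5 to 8 when each line was left out. TSR1 changed sign, to 0.084 (adjusted p = 0.713), with the brightest probe set of a plain identifier. The median change stayed below 0 in every alternative for the 3 comparisons. NPM1 rose with no quantile normalization (0.33, adjusted p = 0.00588) and with the mean of its probe sets. Apart from what an alternative removes by construction, the cause was not tested. All 40 genes with a probe set of their own were above the filter on signal, so signal over background did not limit which of them could be read.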
